A study of Homo sapiens with 9 samples.

Results

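The 40 genes described here run the cell division cycle and DNA replication: cyclins and their kinase, transcription factors of the cycle, the replicative helicase and its loaders, enzymes of nucleotide supply, mitotic kinases, and proteins of the centromere and spindle. They were chosen by name from a list, and all 40 were found, with 1 transcript cluster each, among 17687 genes with a symbol on human Clariom S arrays. All cells are L-1236, an established Hodgkin lymphoma line, and CRISPR/Cas9 was delivered with the lentiviral vector lentiCRISPR v2. In clone g2_1 (3 arrays) the guide targeted LTA, the gene of the secreted cytokine lymphotoxin alpha, in the second exon, and in clone g3_4 (3 arrays) in the fourth exon. Control cells (3 arrays), named v2, are labelled as wild type in phenotype, and the labels do not say which guide, if any, they received or whether they are 1 clone. Each knockout group is a single cell clone. The clones were grown in L-1236 conditioned medium until the last 72 h, which they and the control spent in normal medium; for the control, the earlier medium is not given. Whether the 3 arrays of a group represent 3 cultures is not stated either, so the p-values rest on a spread that may be technical only.

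In a dividing cell, MCM proteins are loaded at replication origins in G1 by CDC6 and CDT1, and cyclin E and cyclin A with their kinases start and carry S phase. E2F factors switch on the genes of DNA synthesis, whereas FOXM1 and MYBL2 switch on the genes of G2 and mitosis, among them CCNB1, PLK1 and CDC20. Because many of these mRNAs rise and fall over the cycle, their level in a bulk sample depends on both the share of cells in each phase and the amount of RNA in each cell, which cannot be told apart here. Hodgkin lymphoma lines divide continuously in culture.

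Values are RMA signals on the log2 scale, so a difference of 1 is a 2-fold change in signal. Probe sets differ in how well they bind, and levels are therefore compared between arrays and not between genes. The LTA probe set was at 7.97, 7.53 and 7.11 in g2_1 and 6.94, 7.25 and 6.61 in g3_4, against 11.58, 11.07 and 11.08 in control cells, with all knockout arrays below all control arrays and log2 fold changes of -3.71 and -4.31. Among markers of Hodgkin and Reed-Sternberg cells, TNFRSF8, which encodes CD30, averaged 11.89 in g2_1, 11.81 in g3_4 and 11.11 in control cells, and IRF4 averaged 12.00, 12.00 and 11.83. Among T cell, monocyte and fibroblast markers, CD3D averaged 4.21, 4.34 and 4.44, LYZ 4.18, 4.22 and 4.24, and LUM 3.96, 4.09 and 4.03 in the same order of groups, all under the first quartile of the table (4.64). The highest of the other markers listed for these types was COL1A2, at 8.08, 8.02 and 7.88. As is usual for these cells, the B cell marker MS4A1 was near the floor too, at 4.39, 4.40 and 4.38. The other markers listed for Hodgkin cells and for B cells are not given here. RMA compresses differences near the floor.

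Control array 1 stood apart from the other control arrays in these genes, and this decides how several of the comparisons read. It was the highest control array for 33 of the 40 genes and the lowest for 2, at a median of 0.33 (log2) above the mean of control arrays 2 and 3. Over all 20893 transcript clusters tested, it was the highest control array for 40.8%, at a median difference of 0.02. Array 1 was also the highest of its group for 24 genes in g2_1 and 26 in g3_4, at smaller median differences of 0.10 and 0.09. The arrays numbered 1 carry the RNA integrity number 10 in every group, against 9.5 to 9.6 on the others, and the part of RNA quality, culture state or handling in this pattern was not tested. Values without control array 1 are therefore given for the genes that it moved most or whose call it changed.

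**Figure D1:**
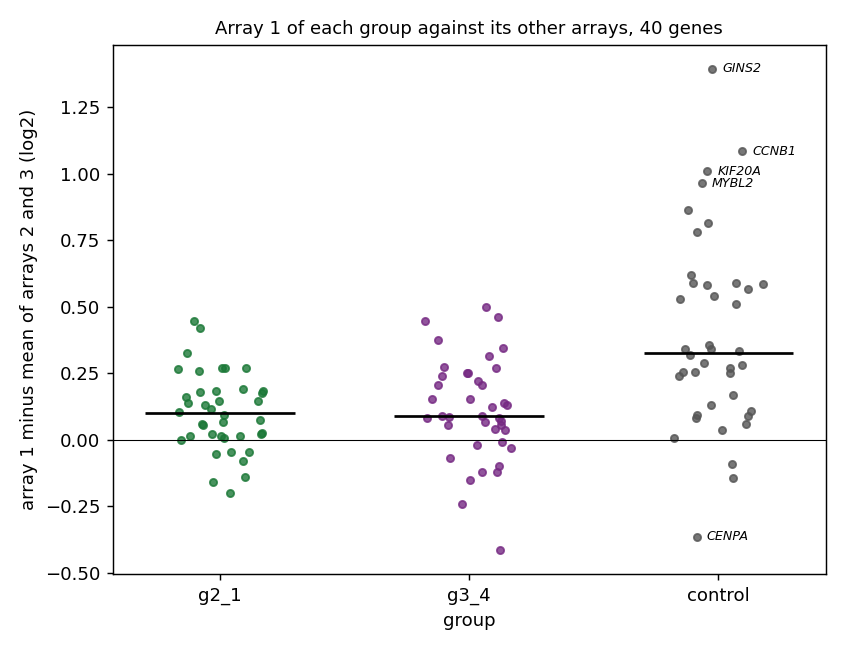
Difference (log2) between array 1 and the mean of arrays 2 and 3 of the same group for each of the 40 genes, with 1 point a gene and a line at the median. The medians are 0.10 in g2_1, 0.09 in g3_4 and 0.33 in control cells, where GINS2 reaches 1.40 and CENPA lies at -0.36.

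In both LTA knockout clones most of these 40 transcripts were close to the control level. With the 2 clones averaged, 39 of 40 genes differed from control by less than 0.5 on the log2 scale, and the 95% interval of 39 genes lay within 1 log2 unit of 0, that of 26 within 0.5. Their median log2 fold change was 0.03, beside 0.04 over all transcript clusters tested, with 23 genes above 0 and 17 below. CDK1 and the helicase subunit genes MCM4 and MCM5 rose, and the transcription factor gene E2F2 and the kinetochore motor gene CENPE fell. These 5 of 40 genes (12.5%) passed limma's test at an adjusted p under 0.05 with the clones averaged, against a background of 18% of all transcript clusters (8.13% higher and 9.83% lower) and of 27.4% of those with a mean at or above the median of the table. In g2_1 alone 3 genes passed, all higher, against 14.3% of all transcript clusters (6.19% higher and 8.06% lower). In g3_4 alone 2 passed as higher and 1 as lower, also against 14.3% (6.12% higher and 8.16% lower). CDK1 and MCM5 passed with the same sign in both clones, which is 5% of the 40 genes against 11.4% of all transcript clusters (4.48% higher and 6.97% lower). All 6 knockout arrays lay on one side of all 3 control arrays for 4 genes, CDK1 and MCM5 above and E2F2 and CENPE below. That is 10% of the genes, against 20.4% of all transcript clusters (9.7% above and 10.6% below). No gene of the 40 passed with a log2 change of at least 1, against 4.17% of all transcript clusters. Counted in either direction, the shares of these genes that passed were thus not above the background. The shares that passed as higher were near it, at 7.5% against 6.19% in g2_1 and 5% against 4.48% in both clones. Both clones are set against the same control arrays, so the clones are not independent of each other.

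**Figure D2:**
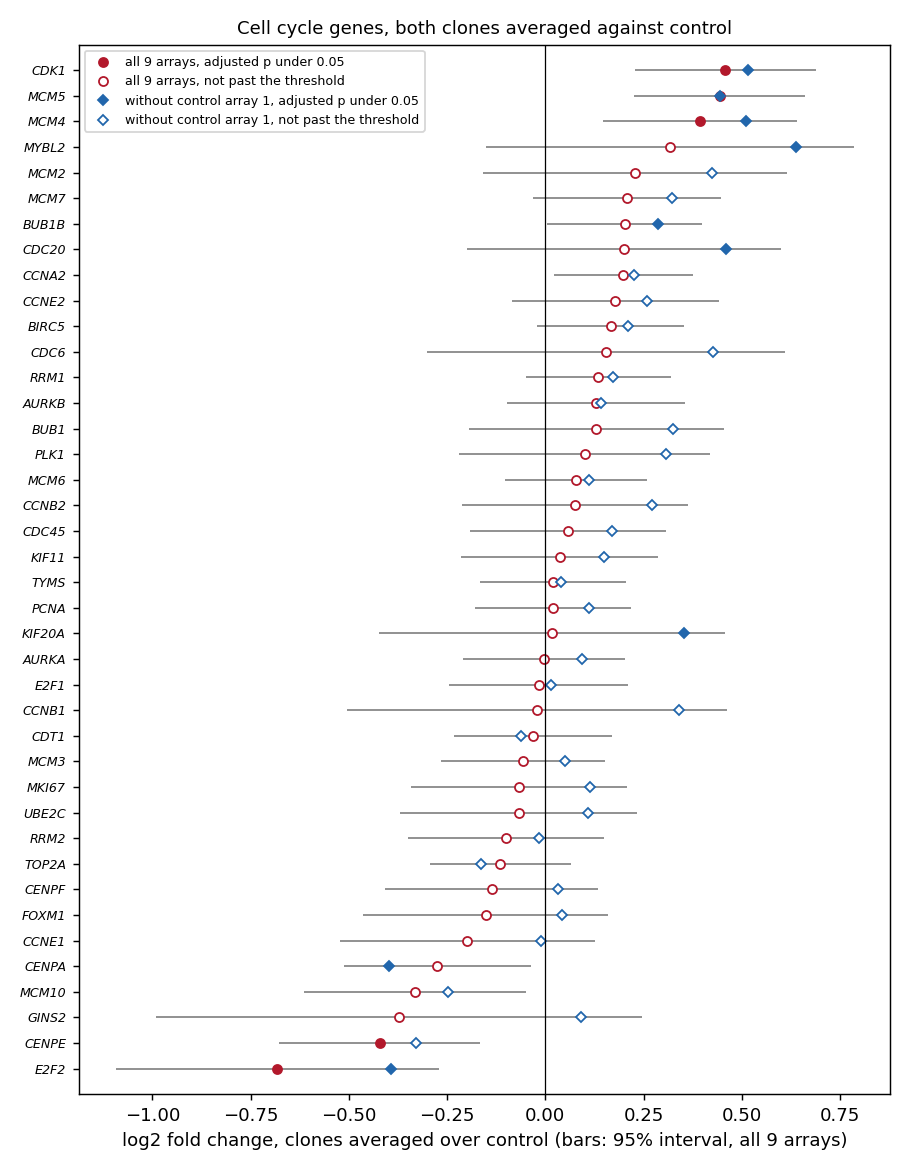
Log2 fold change of each gene, clones averaged over control. Circles are from all 9 arrays with their 95% interval, diamonds from the fit without control array 1, and filled symbols have an adjusted p under 0.05. Filled circles mark CDK1, MCM5 and MCM4 above 0 and CENPE and E2F2 below; without control array 1, 32 of the 40 diamonds lie above 0.

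The promoters of CDK1, E2F2 and CENPE are printed because the knockout and control arrays of these genes did not overlap; MCM5, the other such gene, is named only. Each line is RefSeq sequence of GRCh38.p14 from 250 bases before to 50 after an annotated start, the first one listed where a gene has several, as 6 of the 33 genes with an entry do. Capitals mark matches on either strand to the CCAAT box (CCAAT), to the cell cycle homology region or CHR (TTTGAA or TTCGAA), or to an E2F site (TTTGGCGC, TTTCCCGC, TTTGCCGC or TTTCGCGC). CDK1 lies on the plus strand at chr10:60778081-60778380, E2F2 on the minus strand at chr1:23531184-23531483 and CENPE on the minus strand at chr4:103198294-103198593.
CDK1: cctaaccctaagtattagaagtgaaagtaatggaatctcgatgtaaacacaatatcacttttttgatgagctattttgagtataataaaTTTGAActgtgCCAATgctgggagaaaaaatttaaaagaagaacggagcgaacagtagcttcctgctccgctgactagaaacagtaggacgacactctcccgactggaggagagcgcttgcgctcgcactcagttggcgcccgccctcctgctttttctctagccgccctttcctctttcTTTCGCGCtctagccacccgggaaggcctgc
E2F2: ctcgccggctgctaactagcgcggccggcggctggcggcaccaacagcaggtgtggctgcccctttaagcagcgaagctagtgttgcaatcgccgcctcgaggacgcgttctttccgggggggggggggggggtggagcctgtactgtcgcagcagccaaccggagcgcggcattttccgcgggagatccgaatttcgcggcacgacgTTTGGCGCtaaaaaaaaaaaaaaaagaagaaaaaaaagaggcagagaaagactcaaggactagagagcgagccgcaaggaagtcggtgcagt
CENPE: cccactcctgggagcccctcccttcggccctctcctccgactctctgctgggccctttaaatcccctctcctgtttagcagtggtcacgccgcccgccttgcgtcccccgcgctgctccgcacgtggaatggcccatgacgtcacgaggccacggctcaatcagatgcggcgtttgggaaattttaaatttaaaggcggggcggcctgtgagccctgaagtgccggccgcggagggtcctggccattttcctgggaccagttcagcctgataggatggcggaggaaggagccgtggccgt
The CDK1 window held 1 match to each of the 3 motifs, the E2F2 window 1 E2F match, and the CENPE window none. Of the 33 genes with an entry, 25 (75.8%) held a CCAAT box, against 35.7% of 27305 promoters of the same length. A CHR stood in 13 (39.4%), against 16.6%, and an E2F site in 13 (39.4%), against 3.33%. A match is only a description of these letters. The genes with an E2F match had a median log2 fold change of 0.02 with the clones averaged and those without one 0.05. On control array 1, the genes without an E2F match exceeded the mean of control arrays 2 and 3 by a median of 0.43 and those with one by 0.27, while the medians were 0.34 with a CHR and 0.33 without.

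Among cyclins and their kinase, 1 of 6 genes rose in both clones. CDK1, the kinase that drives entry into mitosis, had signals of 9.32, 9.40 and 9.21 in g2_1 and 9.18, 9.45 and 9.15 in g3_4, against 8.94, 8.64 and 8.90 in control cells. All knockout arrays were above all control arrays. Its log2 fold change was 0.48 in g2_1 (limma, adjusted p = 0.021) and 0.43 in g3_4 (adjusted p = 0.035), and 0.46 (SE 0.10, adjusted p = 0.0106) or 1.37-fold with the clones averaged. Without control array 1 it was 0.52 (adjusted p = 0.0097). Without control array 2, which had the lowest value, it was 0.36 and did not pass (adjusted p = 0.0558). The 50 nearest genes on chromosome 10 with a mean above the first quartile of the table had a median log2 fold change of 0.02.

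The cyclins themselves did not pass in the main fit of all 9 arrays. CCNA2, the cyclin of S phase and G2, was at 11.20, 11.20 and 11.16 in g2_1 and 11.04, 11.08 and 10.89 in g3_4, against 10.95, 10.91 and 10.83 in control cells. The g2_1 arrays were all above the control arrays and the g3_4 arrays overlapped them, with log2 fold changes of 0.29 (adjusted p = 0.0618) and 0.11. With each array centred on its median, CCNA2 rose by 0.31 with the clones averaged (limma, adjusted p = 0.0187). In g2_1 alone CCNA2 passed with centring (adjusted p = 0.013) and with the array number as a block (adjusted p = 0.0461). CCNB1, the partner of CDK1 at mitosis, was at 9.34, 9.31 and 9.09 in g2_1 and 9.33, 9.28 and 8.94 in g3_4, against 9.96, 8.91 and 8.84 in control cells. Control array 1 was above all other arrays here, so the log2 fold change of the clones averaged was -0.02 (SE 0.22) with it and 0.34 (SE 0.12, adjusted p = 0.0835) without it. CCNB2, the second B-type cyclin, showed the same order, with control array 1 highest at 10.47 and a log2 fold change of 0.07 with that array and 0.27 without it (adjusted p = 0.0587). The E-type cyclins of the G1 to S transition had log2 fold changes of -0.20 (CCNE1) and 0.18 (CCNE2), within a 95% interval of -0.52 to 0.13 and -0.08 to 0.44. They were at -0.01 and 0.26 without control array 1.

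**Figure D3:**
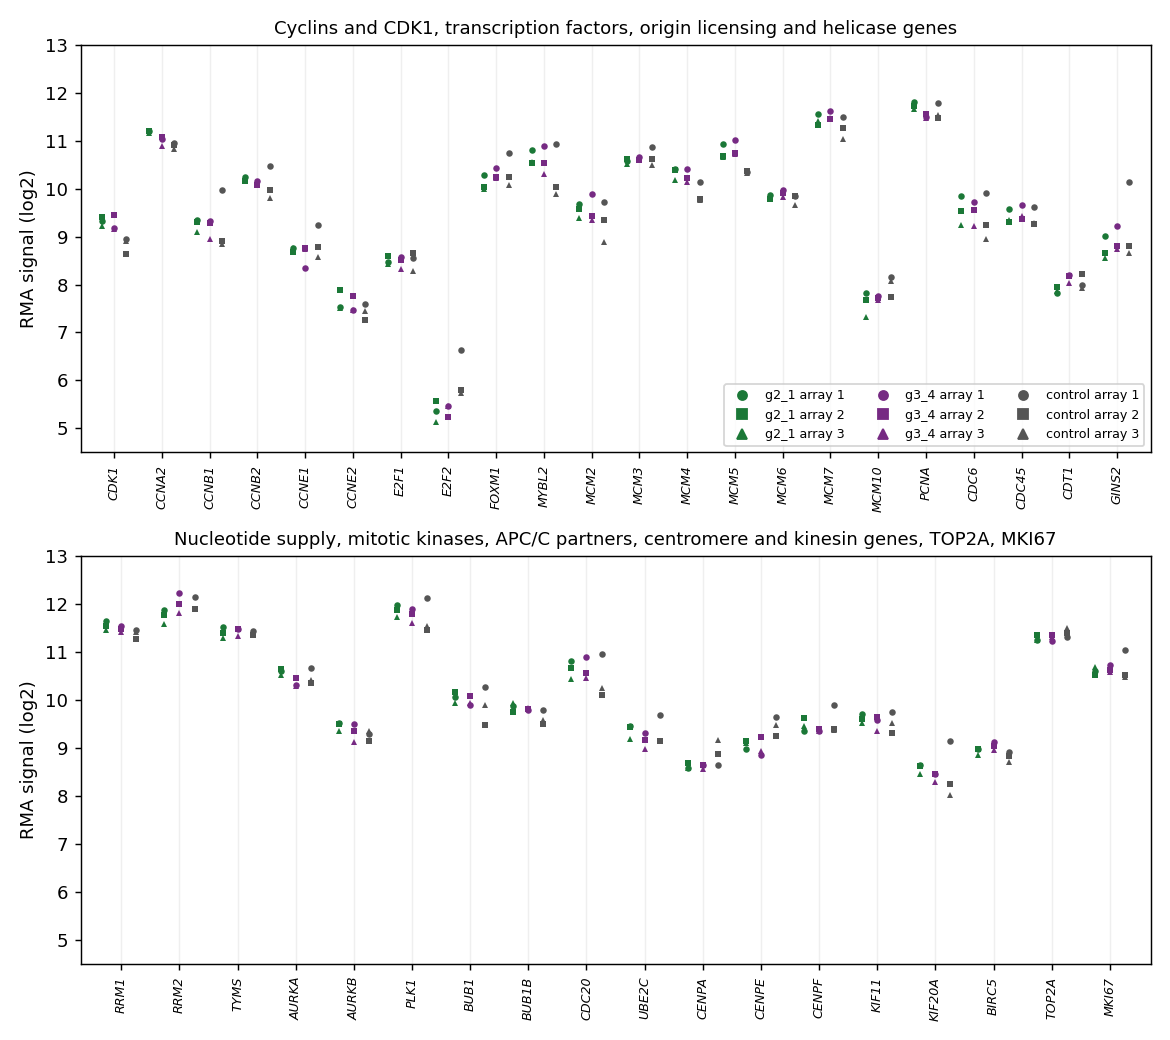
RMA signal (log2) of the 40 genes on all 9 arrays, by role, with g2_1, g3_4 and control side by side for each gene and array numbers 1, 2 and 3 as circles, squares and triangles. CDK1 and MCM5 have all knockout arrays above the control arrays, E2F2 and CENPE all below, and the control circle is far above the other control points for GINS2, CCNB1 and KIF20A.

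Of the 4 transcription factors, E2F2 fell with the clones averaged and the others did not pass. E2F2, an activating E2F factor, was at 5.37, 5.57 and 5.13 in g2_1 and 5.47, 5.23 and 5.46 in g3_4, against 6.63, 5.80 and 5.73 in control cells. All knockout arrays were below the control arrays, but on 8 of the 9 arrays the signal was under the median of the table (6.21), where RMA compresses differences. It fell by 0.68 (SE 0.19, adjusted p = 0.0271), with an adjusted p of 0.0557 in g2_1 and 0.066 in g3_4. Without control array 1 it fell by 0.39 (adjusted p = 0.0495). The call was lost without g2_1 array 1 (-0.69, adjusted p = 0.05002) or 3 (-0.63, adjusted p = 0.0607) and without g3_4 array 2 (-0.64, adjusted p = 0.0631), as it was without the 3 arrays numbered 1 (-0.42, adjusted p = 0.0715). Without control array 3 E2F2 fell by 0.84 (adjusted p = 0.0169). It then passed in g2_1 (adjusted p = 0.0305) and g3_4 (adjusted p = 0.0356). E2F1 was at 8.47, 8.60 and 8.43 in g2_1 and 8.57, 8.51 and 8.32 in g3_4, against 8.56, 8.65 and 8.29 in control cells, a log2 fold change of -0.02 with a 95% interval of -0.25 to 0.21.

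MYBL2 and FOXM1, which act on genes of G2 and mitosis, depended on control array 1. MYBL2 was at 10.81, 10.54 and 10.55 in g2_1 and 10.88, 10.54 and 10.30 in g3_4, against 10.93, 10.04 and 9.89 in control cells. Control array 1 was above every knockout array and the other control arrays were below every one. The log2 fold change of the clones averaged was 0.32 (SE 0.21, adjusted p = 0.381) with it and 0.64 (SE 0.14, adjusted p = 0.0104) without it. The rise without it was present in both clones, at 0.67 in g2_1 (adjusted p = 0.0171) and 0.61 in g3_4 (adjusted p = 0.0275). Without the 3 arrays numbered 1 MYBL2 rose by 0.52 (adjusted p = 0.0097). FOXM1 had a log2 fold change of -0.15 with a 95% interval of -0.46 to 0.16, and of 0.04 without control array 1.

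Of the 12 genes of origin licensing, helicase and clamp, MCM5 rose in both clones and MCM4 with the clones averaged. MCM5, a subunit of the MCM2-7 helicase, was at 10.93, 10.67 and 10.65 in g2_1 and 11.01, 10.75 and 10.73 in g3_4, against 10.35, 10.37 and 10.32 in control cells. The control arrays were nearly equal and all knockout arrays were above them. Its log2 fold change was 0.40 in g2_1 (adjusted p = 0.0372), 0.48 in g3_4 (adjusted p = 0.0154) and 0.44 with the clones averaged (SE 0.10, adjusted p = 0.00905), or 1.36-fold. Its 50 neighbours on chromosome 22 had a median of 0.17, and no test of the difference from them was run. Without control array 1 it was 0.45 (adjusted p = 0.0189), with an adjusted p of 0.0557 in g2_1 and 0.0251 in g3_4.

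MCM4, another subunit of the ring, was at 10.41, 10.38 and 10.18 in g2_1 and 10.41, 10.21 and 10.13 in g3_4, against 10.13, 9.79 and 9.76 in control cells. The lowest knockout array equalled the highest control array. Its log2 fold change was 0.39 (SE 0.11, adjusted p = 0.032), and 0.51 (adjusted p = 0.00618) without control array 1. It did not pass without the second control array (0.34, adjusted p = 0.125) or without the third (0.33, adjusted p = 0.12). Leaving out array 1 or 2 of either clone also ended the call, at 0.35 to 0.40 with adjusted p of 0.0565 to 0.0706. The remaining subunits had log2 fold changes of 0.23 (MCM2), -0.06 (MCM3), 0.08 (MCM6) and 0.21 (MCM7), and none passed. These were 0.43, 0.05, 0.11 and 0.32 without control array 1, and still none passed. MCM10, which helps to start the fork, was at 7.82, 7.67 and 7.32 in g2_1 and 7.76, 7.71 and 7.67 in g3_4, against 8.16, 7.73 and 8.08 in control cells. Its log2 fold change of -0.33 did not pass (adjusted p = 0.107), and without control array 2 it fell by 0.46 (adjusted p = 0.0411).

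Among the loaders and partners of the helicase, control array 1 stood far from the others in GINS2 and CDC6 and close to them in CDT1. GINS2, a subunit of the GINS complex of the active helicase, was at 9.02, 8.65 and 8.55 in g2_1 and 9.21, 8.80 and 8.73 in g3_4, against 10.13, 8.81 and 8.66 in control cells. This single control array gave the largest spread of the 40 genes in control cells (SD 0.81, n = 3), and the log2 fold change was -0.37 (SE 0.28) with it and 0.09 (SE 0.15) without it. CDC6, which loads the helicase, was at 9.84, 9.54 and 9.25 in g2_1 and 9.73, 9.56 and 9.21 in g3_4, against 9.91, 9.24 and 8.95 in control cells, where array 1 was the highest in all 3 groups, and its log2 fold change was 0.15 with control array 1 and 0.43 without it (adjusted p = 0.123). CDT1, its partner in loading, had a log2 fold change of -0.03, and CDC45, the other helicase partner, of 0.06. PCNA, the sliding clamp, averaged 11.73 ± 0.08 in g2_1, 11.51 ± 0.04 in g3_4 and 11.60 ± 0.16 in control cells (SD, n = 3 each), a log2 fold change of 0.02 with a 95% interval of -0.18 to 0.22.

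The 3 enzymes of nucleotide supply did not pass in either clone. RRM1 and RRM2, the subunits of ribonucleotide reductase, had log2 fold changes of 0.13 and -0.10 with the clones averaged, and TYMS, thymidylate synthase, of 0.02. TYMS was within 11.29 to 11.52 on all 9 arrays. RRM2 was at 11.87, 11.78 and 11.59 in g2_1 and 12.23, 12.01 and 11.82 in g3_4, against 12.15, 11.90 and 11.90 in control cells, so the clones lay on different sides of the control mean.

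None of the 5 mitotic kinases or the 2 partners of the anaphase-promoting complex passed in the main fit of all 9 arrays. PLK1, a kinase of mitotic entry and spindle assembly, was at 11.99, 11.88 and 11.74 in g2_1 and 11.90, 11.79 and 11.60 in g3_4, against 12.13, 11.47 and 11.55 in control cells. BUB1, a kinase of the spindle checkpoint, was at 10.07, 10.16 and 9.95 in g2_1 and 9.90, 10.09 and 9.95 in g3_4, against 10.28, 9.49 and 9.90 in control cells. In both genes control array 1 was above every other array, and without it their log2 fold changes were 0.31 and 0.33, against 0.10 and 0.13 with it, with neither passing. BUB1B, a further checkpoint protein, had a log2 fold change of 0.20 with all arrays (adjusted p = 0.162) and rose by 0.29 without control array 1 (adjusted p = 0.0454). With each array centred on its median, BUB1B rose by 0.31 (limma, adjusted p = 0.0263). CDC20, an activator of the anaphase-promoting complex, had 0.20 with all arrays (adjusted p = 0.541) and rose by 0.46 without control array 1 (adjusted p = 0.0368). The aurora kinase genes AURKA and AURKB had log2 fold changes of 0.00 and 0.13, and UBE2C, the ubiquitin-conjugating enzyme of that complex, of -0.07. The values without control array 1 were 0.09, 0.14 and 0.11, and none passed.

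Of the 6 centromere, kinesin and survivin genes, CENPE fell with the clones averaged. CENPE, a kinesin of the kinetochore, was at 8.98, 9.14 and 9.10 in g2_1 and 8.85, 9.24 and 8.94 in g3_4, against 9.65, 9.25 and 9.49 in control cells. The groups were separated by 0.01 between the highest knockout and the lowest control array. It fell by 0.42 (SE 0.12, adjusted p = 0.0275), with its 50 neighbours on chromosome 4 at a median of -0.21. Its value was -0.33 and did not pass without control array 1 (adjusted p = 0.0921), and -0.31 with each array centred on its median (adjusted p = 0.0708). Without the third control array it was -0.41 (adjusted p = 0.0775), without the 3 arrays numbered 1 -0.27 (adjusted p = 0.184), and leaving out g2_1 array 1 or g3_4 array 1 or 3 also ended the call, at -0.40 to -0.38 with adjusted p of 0.0557 to 0.0601. Without the second control array CENPE fell by 0.53 (adjusted p = 0.0168). It then passed in g2_1 (adjusted p = 0.0437) and g3_4 (adjusted p = 0.0258). With the array number as a block CENPE fell by 0.42 (adjusted p = 0.036).

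CENPA, the histone variant of centromeres, was with TOP2A 1 of the 2 genes for which control array 1 was the lowest control array. It was at 8.59, 8.68 and 8.59 in g2_1 and 8.64, 8.64 and 8.57 in g3_4, against 8.65, 8.87 and 9.16 in control cells. The log2 fold change was -0.27 (adjusted p = 0.112) with all arrays, and without control array 1 CENPA fell by 0.40 (adjusted p = 0.0171), with an adjusted p of 0.0348 in g2_1 and 0.0335 in g3_4. KIF20A, a kinesin of cytokinesis, was at 8.65, 8.63 and 8.46 in g2_1 and 8.45, 8.47 and 8.30 in g3_4, against 9.15, 8.25 and 8.03 in control cells. All knockout arrays lay between control array 1 and the other control arrays, and the log2 fold change was 0.02 with control array 1 and 0.35 without it (adjusted p = 0.036). CENPF had a log2 fold change of -0.14 (0.03 without control array 1), the spindle kinesin gene KIF11 of 0.04 (0.15 without it), and BIRC5, which encodes survivin, of 0.17, and none of them passed. With each array centred on its median, BIRC5 rose by 0.28 (limma, adjusted p = 0.0379).

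The most used markers of proliferation did not pass. MKI67, which encodes the Ki-67 antigen, was at 10.60, 10.52 and 10.68 in g2_1 and 10.74, 10.62 and 10.58 in g3_4, against 11.05, 10.53 and 10.49 in control cells. Only control array 1 lay outside the range of the knockout arrays on the upper side, and the log2 fold change was -0.07 (95% interval -0.34 to 0.21) with it and 0.11 without it. TOP2A, the topoisomerase that untangles DNA before anaphase, was at 11.25, 11.35 and 11.26 in g2_1 and 11.23, 11.35 and 11.31 in g3_4, against 11.31, 11.40 and 11.51 in control cells. Its log2 fold change was -0.12 with a 95% interval of -0.29 to 0.06.

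The balance of the 40 genes moved with single control arrays. With all arrays 23 were above 0 and 17 below with the clones averaged, and without control array 1 there were 32 above and 8 below. Without control array 2 there were 18 above and 22 below, at a median of -0.01, and without control array 3 there were 19 above and 21 below, at a median of -0.02. The median moved to 0.15 without control array 1, while the median over all transcript clusters stayed at 0.04. The count of genes that passed became 9 (22.5%), of which 7 were higher and 2 lower, against a background of 17.8% (8.21% higher and 9.63% lower). They were CDK1, MYBL2, MCM4, MCM5, BUB1B, CDC20 and KIF20A as higher and E2F2 and CENPA as lower. In g2_1 and g3_4 by themselves 5 genes each passed (12.5%), against 14.9% and 15.1%. In both clones with the same sign, 4 passed (CDK1, MYBL2 and MCM4 higher, CENPA lower), against a background of 12% (4.78% higher and 7.21% lower). Without all 3 arrays numbered 1, 5 genes passed with the clones averaged (CDK1, MYBL2, MCM4 and MCM5 higher, CENPA lower), against 17.3%, and CDK1 and MYBL2 in both clones, against 10.5%. With the array number as a block and all arrays kept, CDK1, MCM4 and MCM5 passed as higher and E2F2 as lower in both clones, against 14.4%.

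Comparing arrays of the same number gave a difference in sign. Between arrays numbered 1, 28 of 40 genes were lower in g2_1 than in control cells and 25 were lower in g3_4, at medians of -0.08 and -0.10. Between arrays numbered 2, 26 genes were higher in g2_1 and 28 in g3_4, at medians of 0.23 and 0.11, and between arrays numbered 3 the counts were 28 and 27, at medians of 0.12 and 0.08. Of all transcript clusters, 51.6% to 54.4% were higher in a clone than in control cells at each number, at medians of 0.02 to 0.03. With the clones averaged, 13 genes were lower than control at number 1 and higher at both other numbers, 10 were higher at all 3 numbers and 7 were lower at all 3. MCM5 was higher by 0.62, 0.34 and 0.37 and CDK1 by 0.31, 0.79 and 0.28 at numbers 1, 2 and 3. For E2F2 the differences at these numbers were -1.21, -0.40 and -0.43. Single arrays carry no test.

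The control arrays also differed more among themselves than the knockout arrays did. The median SD of the 40 genes was 0.10 in g2_1, 0.12 in g3_4 and 0.22 in control cells (n = 3 each), beside 0.12, 0.12 and 0.16 over all transcript clusters. Over those with a mean at or above the median of the table it was 0.11, 0.12 and 0.18. An SD above 0.3 was found for 0 of the 40 genes in either clone and for 15 in control cells. The share of all transcript clusters above that SD is not given. No test of that difference in spread was run.

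Between the clones, 0 of 40 genes passed in limma, against 0.0526% of all transcript clusters, and 1 had an unadjusted p under 0.05. That gene was CDT1, which was at 7.83, 7.95 and 7.87 in g2_1 and 8.19, 8.18 and 8.03 in g3_4, a difference of -0.25 on the log2 scale (SE 0.10). The other large differences were -0.27 for RRM2, 0.23 for AURKA and 0.23 for PCNA. AURKA was at 10.60, 10.64 and 10.53 in g2_1 and 10.31, 10.46 and 10.30 in g3_4, with no overlap between the clones, as for CDT1. Of all transcript clusters, 5.99% had all g2_1 arrays above all g3_4 arrays and 5.55% had them all below. The 95% intervals of all 40 differences lay between -0.89 (GINS2) and 0.68 (KIF20A), so differences of that size are not excluded for those genes in this fit. Without control array 1, which enters the shared estimate of the spread, they lay between -0.54 (RRM2) and 0.46 (UBE2C), with -0.51 as the lower bound for GINS2. In that fit 4 genes had an unadjusted p under 0.05 (CDT1, RRM2, AURKA and PCNA), and 3 did with only the clones fitted (the same genes without RRM2). In both fits 0 passed. The share of all transcript clusters under that unadjusted p is not given.

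Of 178 further genes of the cycle, listed by role, 167 were found. In both clones with the same sign 14 rose and 10 fell, which is 14.4% of them against the background of 11.4% (4.48% higher and 6.97% lower). The counts by role below stand beside that same background. Their median log2 fold change with the clones averaged was 0.11, beside 0.04 over all transcript clusters, and values below are log2 changes with the clones averaged. Control array 1 was the highest control array for 99 of the 167, at a median of 0.15 above the others. Of 6 genes of nucleotide supply, 2 rose: TK1, the thymidine kinase of S phase, by 0.74 (SE 0.11) and DTYMK, which makes thymidine diphosphate, by 0.44. TK1 was at 11.04, 10.93 and 10.84 in g2_1 and 11.16, 10.87 and 10.81 in g3_4, against 10.15, 10.36 and 10.09 in control cells, with no overlap. Of 27 genes of the fork and of histone supply, RPA2 and TIMELESS rose by 0.37 and 0.50, and PRIM1, the catalytic subunit of primase, fell by 1.21 (SE 0.11). PRIM1 was at 9.57, 9.71 and 9.56 in g2_1 and 9.60, 9.52 and 9.17 in g3_4, against 10.87, 10.60 and 10.72 in control cells. None of 16 further genes of origin licensing passed in both clones.

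The G1 kinases moved in different directions. CDK4 fell by 0.58 and CDK2 fell by 0.38, while CDK6, the close relative of CDK4, rose by 0.61, and these were the 3 of 15 G1 cyclins, kinases and activators that passed in both clones. Without control array 1 CDK2 was at -0.28 (adjusted p = 0.0519) and passed in neither clone. CDK6 was at 9.56, 9.66 and 9.68 in g2_1 and 9.76, 9.76 and 9.79 in g3_4, against 8.98, 9.09 and 9.20 in control cells. Among 17 RB, E2F and DREAM factors, 0 rose and 2 fell in both clones: RB1, the retinoblastoma protein that restrains E2F, by 0.76 (SE 0.08) and TFDP2, a dimer partner of E2F, by 1.22 (SE 0.14). RB1 was at 9.45, 9.30 and 9.46 in g2_1 and 9.38, 9.32 and 9.32 in g3_4, against 10.10, 10.09 and 10.20 in control cells, and its 50 neighbours on chromosome 13 had a median of 0.04.

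**Figure D4:**
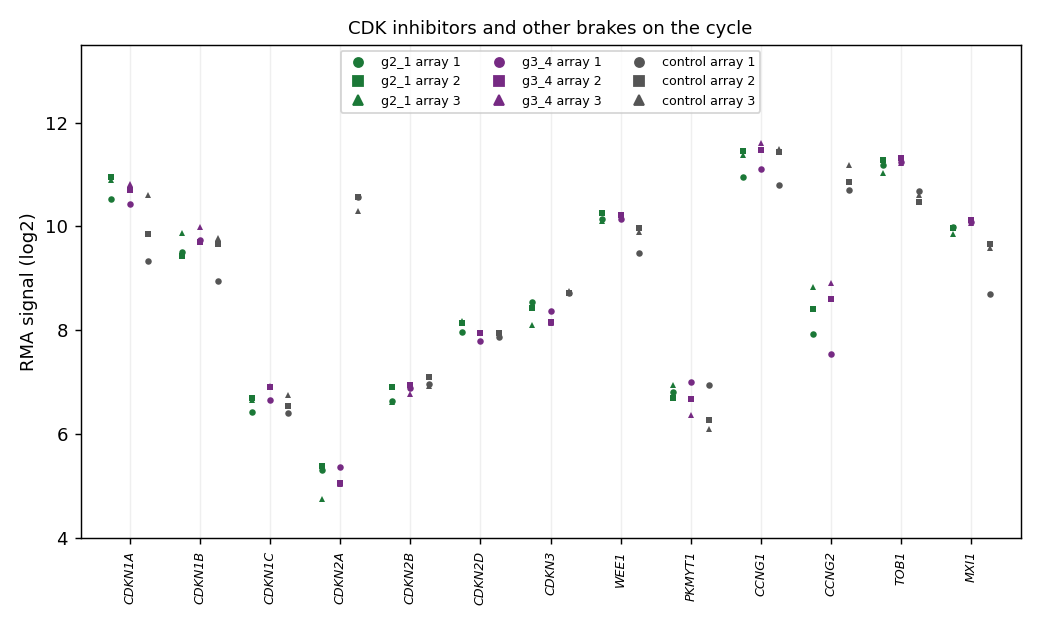
RMA signal (log2) of 13 CDK inhibitors and other brakes on the cycle on all 9 arrays, with g2_1, g3_4 and control side by side and array numbers as circles, squares and triangles. CDKN2A and CCNG2 are far lower in both clones, TOB1 is higher in both, and the control circle is lowest for CDKN1A, CDKN1B, WEE1, CCNG1 and MXI1.

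Of 13 CDK inhibitors and other brakes, 1 rose and 2 fell in both clones. CDKN2A, which encodes the CDK4 and CDK6 inhibitor p16 and the p53 activator ARF, was at 5.31, 5.38 and 4.75 in g2_1 and 5.37, 5.06 and 5.03 in g3_4, against 10.56, 10.56 and 10.30 in control cells. It fell by 5.32 (SE 0.15), in a region whose 50 neighbours had a median of -0.73. CCNG2, a cyclin linked to cell cycle arrest, was at 7.93, 8.41 and 8.83 in g2_1 and 7.54, 8.61 and 8.91 in g3_4, against 10.71, 10.86 and 11.18 in control cells, and fell by 2.55 (SE 0.28). TOB1, an antiproliferative protein, rose by 0.62. CDKN1A, which encodes the CDK inhibitor p21, had a log2 fold change of 0.79 with the clones averaged (adjusted p = 0.0332) and did not pass in g2_1 (adjusted p = 0.0515) or g3_4 (adjusted p = 0.0992). CDKN1A was at 0.50 without control array 1 and did not pass (adjusted p = 0.104). Array 1 was the lowest control array for 9 of the 13, against 34.9% of all transcript clusters, and the lowest of its group for 5 in g2_1 (32.6%) and 6 in g3_4 (35.3%). It was the highest control array for PKMYT1, a kinase that inhibits CDK1, and for TOB1, and the highest of both clones for CDKN3. CDKN1A, CDKN1C, CDKN2D, CCNG1 and CCNG2 were lowest on array 1 in all 3 groups. MXI1, an antagonist of MYC, was at 9.98, 9.96 and 9.85 in g2_1 and 10.08, 10.12 and 10.07 in g3_4, against 8.70, 9.66 and 9.59 in control cells, and rose by 0.69 with the clones averaged (adjusted p = 0.0208), and by 0.39 without control array 1 (adjusted p = 0.0097). WEE1, the kinase that holds CDK1 inactive, rose by 0.40 (adjusted p = 0.0276) and did not pass without that array (0.25, adjusted p = 0.0767), and CDKN3, a phosphatase that acts on CDK2, fell by 0.44 (adjusted p = 0.0146).

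Genes of chromosome mechanics moved in both directions as well. Of 24 spindle, kinesin and cytokinesis genes, KIF18A, HMMR and KIF18B rose by 0.52, 0.43 and 0.32, while the kinase gene MELK fell by 0.74 and the kinesin gene KIF14 fell by 0.42. MELK lies on chromosome 9 among neighbours with a median of -0.56. Of 19 condensation, cohesion and separation genes, CDC16, a subunit of the anaphase-promoting complex, rose by 0.46, the condensin II gene NCAPH2 by 0.45 and the cohesin gene SMC1A by 0.44, and CDC26, a further subunit of that complex, fell by 0.86. CDC16 rose by 0.35 without control array 1 (clones averaged, adjusted p = 0.0344), but then passed in neither clone. Of 18 checkpoint and kinetochore genes SGO2, which protects centromeric cohesion, rose by 0.70, with its neighbours on chromosome 2 at a median of 0.41. Of 12 checkpoint kinase and repair genes, the helicase gene BLM rose by 0.55.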

How the data were processed

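RNA of 9 samples was measured on Clariom S arrays, after 250 ng of RNA was labelled per the labels' protocols. The deposited values are log2 signals per transcript cluster, which the authors computed by RMA, and the submitters' processing notes name Transcriptome Analysis Console 4.0. Build and probe annotation are not given in the sources used here. Names came from platform annotation, updated through RefSeq gene IDs (GRCh38.p14). Of 21448 rows, 555 marked as unmapped were left out, 20893 were tested and 17705 had a symbol.

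Group means over all 9 arrays were estimated by lmFit and compared by eBayes (limma 3.58.1, R 4.3.3, two-sided), with Benjamini-Hochberg adjustment over all 20893. A gene passed at an adjusted p under 0.05. SE is limma's moderated standard error. The code was tested on simulated data. The 40 genes and all lists were chosen with earlier results of these data known. Named are the 40 genes, LTA, markers, all brakes and, of each other list, up to 3 genes in each direction that passed in both clones. Neighbours are the 25 nearest genes on each side with a mean above the first quartile of the table. Precision is limited by the number of arrays.

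Alternatives left out each array or the arrays numbered 1, used the array number as a block, centred arrays, fitted only the groups compared, changed the variance model, weighted arrays, filtered low rows, included unmapped rows or added a limit on the fold. Same-numbered arrays of the clones had correlated deviations from their group means (correlations across rows 0.435, 0.191 and 0.310). Against control they did so only in part (0.285, 0.0426 and 0.183 for g2_1 and 0.298, 0.0565 and 0.257 for g3_4). At each number the deviations of the clones were thus more correlated with each other than with those of the control. A pairing with the control is not excluded.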

Additional observations from a re-analysis of the deposited data

How the results depend on the processing

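The count of genes that passed is small and moves with single arrays. Leaving out each array in turn gave 2 to 9 genes with the clones averaged (5 with all arrays), 0 to 5 in g2_1 (3), 0 to 5 in g3_4 (3), and 0 to 4 the same way in both clones (2). The highest counts came without control array 1, and 0 passed in g2_1 without g2_1 array 1 or 2 and in g3_4 without g3_4 array 1. The further cell cycle genes that passed in both clones numbered 16 to 30 (24), and the clone comparison stayed at 0. With the array number as a replicate block, 5 genes passed in g2_1 (12.5%, against 18.3% of all transcript clusters). In both clones 4 passed (CDK1, MCM4 and MCM5 higher, E2F2 lower), against 14.4%. Between the clones 0 passed, so the pairing of the clones changed no call there. Centring arrays on their median gave 5 in g2_1 and 37 further genes (29 higher, 8 lower), as it raised the median of all transcript clusters from 0.04 to 0.15 and that of the 40 genes from 0.03 to 0.14. Only the groups compared gave 1 in g2_1, 1 in g3_4 and 0 in both clones, and eBayes with trend and robust gave 5 in g2_1. A log2 fold limit of 1 left 0 of the 40 genes in every comparison and 4 further genes, against 4.17% of all transcript clusters with the clones averaged. Shares of all transcript clusters are given for this limit, the block and the fits without control array 1 or without the arrays numbered 1. For the other alternatives they are not given, so those counts are not read as particular to these genes. The median of the 40 genes ranged from -0.02 to 0.15 with the clones averaged as each array was left out, from -0.02 to 0.21 in g2_1, from -0.03 to 0.14 in g3_4, and from -0.01 to 0.08 between the clones. Of single genes with the clones averaged, 12 results gained and 24 lost their call under an alternative, and 0 that passed changed sign. MCM5 lost it only under the log2 fold limit. Where neither fewer arrays nor a stricter limit accounts for a change, the cause was not tested. Arrays numbered 1 alone, a comparison added after seeing the data, gave medians of -0.10 with the clones averaged, -0.08 in g2_1 and -0.10 in g3_4.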
